A study of Homo sapiens with 9 samples.

Results

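WNT ligands, their frizzled receptors and co-receptors, secreted WNT inhibitors and feedback regulators of the pathway were compared among 3 cell lines that differ in the MEK1 protein they express. Members were found by gene name in the annotation of the arrays, and 49 of the 38771 names on the array were found.

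WNT proteins are secreted, lipid-modified ligands that bind frizzled receptors, either together with the co-receptors LRP5 and LRP6, which leads to stabilisation of β-catenin and transcription through TCF and LEF factors, or through β-catenin-independent routes that act on cell polarity and movement. Several secreted proteins of the DKK and SFRP families, and WIF1, hold the pathway back from outside the cell. DKK1 does so by binding the LRP co-receptors, and SFRP proteins and WIF1 by binding the ligands. AXIN2, NKD1, RNF43 and ZNRF3 are feedback inhibitors, and several of them are themselves transcribed in response to β-catenin. The 49 members comprised 19 ligands, 10 frizzled receptors, 3 co-receptors or LGR receptors, 10 secreted inhibitors, 6 feedback regulators or nuclear factors and 1 antisense RNA, FZD10-AS1. Together they had 65 of the 50598 probes on the array. For FZD10-AS1, 5 probes carried the name in the annotation of slide 2 alone, as did 1 probe for WNT3.

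The cells were HEK293, a line derived from human embryonic kidney, carrying a plasmid for HA-tagged MEK1 and selected with puromycin. In the labels, the source name of 2 of the WT samples reads HEK294 or HEK295 while their cell line reads HEK293, and they were taken as HEK293. MEK1, encoded by MAP2K1, is the kinase that activates ERK. The plasmid coded for the wild-type protein (WT), for F53S, a mutant found in the developmental disorders called RASopathies, or for K57N, a mutant found in cancers. All 3 lines thus carried a MEK1 plasmid besides the cells' own MEK1 gene. Each mutant was represented by 1 stable line, so that the mutation cannot be told apart from other differences between lines, and the 3 arrays per line came from separate experiments.

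Signals are given on the log2 scale relative to the 75th percentile of the same array, so that 0 is the signal at that percentile. Because probes differ in efficiency, levels were compared between lines for a gene and not between genes. Replicate 1 of every line was on slide 1, which was dimmer, with 75th percentiles of 245 to 376 signal units, and replicates 2 and 3 were on slide 2, with 695 to 821. The number of probes well above background, as marked by the scanner software, was 23723 to 26126 on slide 1 and 27150 to 29349 on slide 2. A gene was called when limma's adjusted p was below 0.05 and the change was more than 2-fold. Because the slides differed, the values from a fit with the slide as a block are given beside those of the fit without it. MAP2K1 was measured at log2 signals of 2.37 in WT, 2.45 in F53S and 2.85 in K57N as means of 3 arrays, and K57N exceeded WT by a log2 value of 0.48 (adjusted p = 0.135 without the block and 0.00758 with it). Whether the probe reads the plasmid's MEK1, the cells' own or both was not determined. Of 8 markers of HEK293 cells, 7 were well above background on all 9 arrays and NEFM on 6. Of 9 markers of leukocytes, hepatocytes, endothelium, fibroblasts and muscle, 3 were well above background on all 9 arrays (PTPRC, CDH5 and COL1A1) and 3 on none (ALB, DCN and MYH2). The summed signal of these 9 markers lay at log2 values of 0.063 to 0.93 on WT, -0.29 to 0.71 on F53S and -0.69 to -0.13 on K57N arrays. The markers within it moved in different directions from WT to K57N. Mean log2 signals in WT and K57N were -0.18 and -1.38 for COL1A1, -4.02 and -3.77 for PTPRC, and -2.75 and -2.88 for CDH5. Of the markers well above background on some arrays only, CD3E (7 arrays) had -3.39 and -4.54. COL3A1 (4 arrays) had -4.12 and -7.00, and PECAM1 (2 arrays) had -6.76 and -4.16. The summed signal of the 8 HEK293 markers lay at 7.98 to 8.29 on WT, 8.03 to 8.62 on F53S and 8.44 to 8.68 on K57N arrays, so that K57N lay above WT without overlap. The part of either sum in the differences below was not tested.

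A wide part of the receptor side of the family was present in these cells. All 10 frizzled receptors and all 6 feedback regulators or nuclear factors were well above background on all 9 arrays, as were LGR4, a receptor for R-spondins, and LRP6. Of the 19 ligands, 8 were well above background on all 9 arrays (WNT3, WNT3A, WNT5A, WNT5B, WNT6, WNT10A, WNT10B and WNT11), and 6 were on none (WNT1, WNT2, WNT8A, WNT8B, WNT9A and WNT9B). Of the 10 secreted inhibitors, DKK1, DKK3, DKKL1 and SFRP1 were well above background on all 9 arrays and DKK2, SFRP4 and WIF1 on none. In all, 33 of the 49 members reached this mark on every array of 1 or more of the lines and were tested, among 19279 tested genes over the whole array. The members left out of the tests were 9 ligands, 6 secreted inhibitors and LGR5, the R-spondin receptor that marks many stem cells. LGR5 was detected above background on 2 WT arrays, 2 F53S arrays and no K57N array. Its log2 signals were -5.98, -4.23 and -4.44 in WT, -5.90, -3.92 and -3.82 in F53S, and -5.52, -6.26 and -5.98 in K57N. On slide 2 the K57N arrays were thus the lowest, whereas on slide 1 LGR5 was not well above background in any line.

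**Figure D1:**
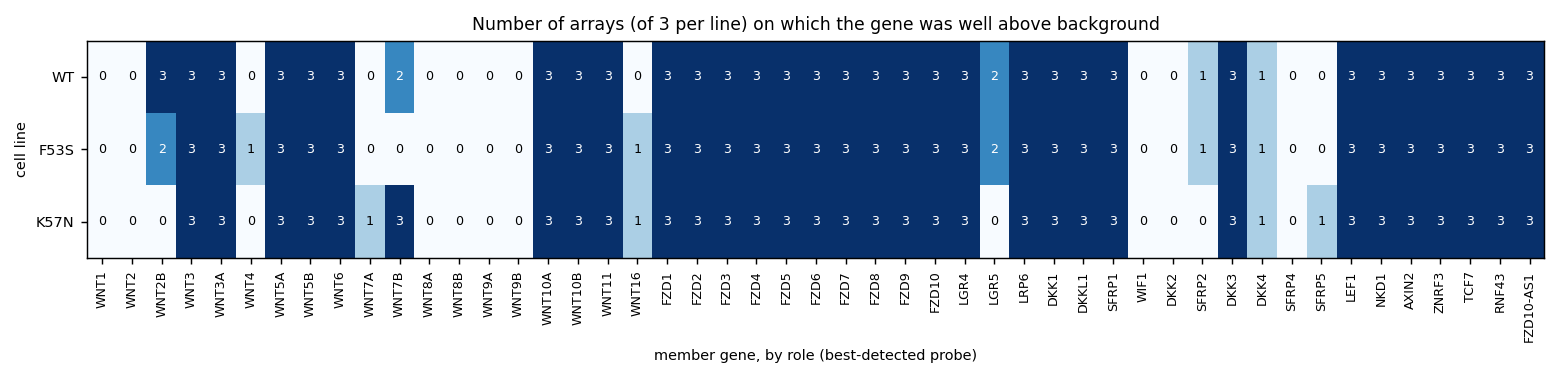
Number of arrays, from 0 to 3 in each line, on which each of the 49 members was well above background, for the probe of the gene detected on most arrays. All frizzled receptors are detected throughout, whereas most ligands are detected on all arrays or on few, and WNT2B, WNT7B and LGR5 are among the members whose number differs between the lines.

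K57N cells differed from WT cells in a few members of the family. DKK1, which binds LRP6 and blocks signalling through β-catenin, was 5.05-fold higher, and WNT5A, a ligand best known for β-catenin-independent signalling, was 2.38-fold lower. These were the members called in the fit without a block, 1 of 33 higher and 1 of 33 lower, where 1.52% of all tested genes were called higher and 0.742% lower. With the slide as a block, DKK1 was again the member called higher, and WNT5A and WNT2B were called lower (2 of 33), where 2.57% and 1.98% of all genes were called. WNT2B was tested because it was well above background in WT and was not so on any K57N array, so its call is not support for the count. The median log2 change of the 33 members was -0.09, and that of all genes was -0.06.

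DKK1 was measured at log2 signals of -3.05, -2.36 and -2.31 in WT, -2.28, -2.22 and -1.99 in F53S, and -0.60, -0.28 and 0.16 in K57N. Every K57N array was above every array of the other lines. The difference between K57N and WT was 2.34 (95% interval 1.73 to 2.95, adjusted p = 0.00353 without the block and 0.000129 with it). By replicate number it was 2.45, 2.07 and 2.48, so that it was present on both slides. With normexp background correction the difference was smaller, at 1.62 (adjusted p = 0.0116). Against F53S, DKK1 was 3.80-fold higher in K57N, a log2 difference of 1.93 (95% interval 1.32 to 2.54, adjusted p = 0.0137, and 0.000538 with the block). The call against WT was kept when any 1 array was left out, while that against F53S was lost without F53S replicate 2 or 3 or K57N replicate 2 or 3, with adjusted p of 0.0768, 0.0604, 0.0709 and 0.0694 and log2 differences of 1.73 to 2.01.

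DKK1 was read by 1 probe, which lies at chr10:54076687-54076746 on the plus strand of hg19. The first 30 bases of its 60 are shown to say which part of the transcript was measured. The 250 bases before the gene's start, from RefSeq on GRCh38.p14 (chr10:52314031-52314280, plus strand), are shown because DKK1 is a textbook target of β-catenin and because ERK acts through ETS and AP-1 factors. Capitals mark matches on either strand to CTTTGA, a form of the TCF/LEF motif, TGANTCA, the AP-1 motif, or CCGGAA, a form of the ETS motif. Other forms of these motifs were not searched for.
DKK1 probe: aataacaccttccaaaaacctggagtgtaa
DKK1 upstream: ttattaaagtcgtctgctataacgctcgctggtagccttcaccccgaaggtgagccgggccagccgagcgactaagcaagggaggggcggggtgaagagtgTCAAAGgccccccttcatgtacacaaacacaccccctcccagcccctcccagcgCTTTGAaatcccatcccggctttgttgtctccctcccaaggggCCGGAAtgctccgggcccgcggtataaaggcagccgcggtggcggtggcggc
This window held 2 TCF/LEF matches, which begin 149 and 95 bases before the start, and 1 ETS match, which begins 52 bases before it, and no match to the AP-1 letters. None of the matches overlap. Among 35116 windows of this length in the RefSeq table, 11.2% held a TCF/LEF match, 6.57% an AP-1 match and 14.5% an ETS match. The table had windows for 31 of the 49 members, 36 windows in all, of which 1 held a TCF/LEF match, 1 an AP-1 match and 2 an ETS match. A match describes letters only, and binding was not measured.

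WNT5A was measured at log2 signals of 0.57, 0.46 and 0.49 in WT, 0.21, 0.59 and 0.43 in F53S, and -1.01, -0.64 and -0.59 in K57N. WT and F53S arrays overlapped, and all 3 K57N arrays lay below them. The difference between K57N and WT was -1.25 (95% interval -1.66 to -0.85, adjusted p = 0.00970, and 0.000638 with the block), and that between K57N and F53S was -1.16 (95% interval -1.56 to -0.75, adjusted p = 0.0234, and 0.00149 with the block). By replicate number the K57N difference from WT was -1.58, -1.09 and -1.08. Without the block the call against WT was lost without WT replicate 3 (adjusted p = 0.0517), and the call against F53S was lost in turn without F53S replicate 2 or 3, each K57N replicate, or WT replicate 2 or 3, with adjusted p from 0.0545 to 0.118 and log2 differences from -1.24 to -1.03.

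The WNT5A probe lies at chr3:55499800-55499859 on the minus strand of hg19, and its first 30 bases are shown. The gene has 2 starts in the RefSeq table, and the windows before both are shown for comparison with that of DKK1, at chr3:55487307-55487556 and chr3:55481399-55481648 on the minus strand of GRCh38.p14.
WNT5A probe: gcatcttagaccatttttatatgcagtgta
WNT5A upstream, first window: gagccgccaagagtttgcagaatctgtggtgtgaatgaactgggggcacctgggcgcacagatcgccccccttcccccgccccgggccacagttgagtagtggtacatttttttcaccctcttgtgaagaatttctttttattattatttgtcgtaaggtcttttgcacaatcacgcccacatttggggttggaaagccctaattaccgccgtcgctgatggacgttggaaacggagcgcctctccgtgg
WNT5A upstream, second window: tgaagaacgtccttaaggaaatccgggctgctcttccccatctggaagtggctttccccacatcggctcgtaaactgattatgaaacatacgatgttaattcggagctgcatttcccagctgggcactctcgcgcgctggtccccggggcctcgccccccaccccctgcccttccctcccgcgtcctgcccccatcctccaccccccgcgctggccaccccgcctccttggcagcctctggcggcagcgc
Neither window held a match to any of the 3 motif forms searched for, which says only that these letters are not in these windows.

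**Figure D2:**
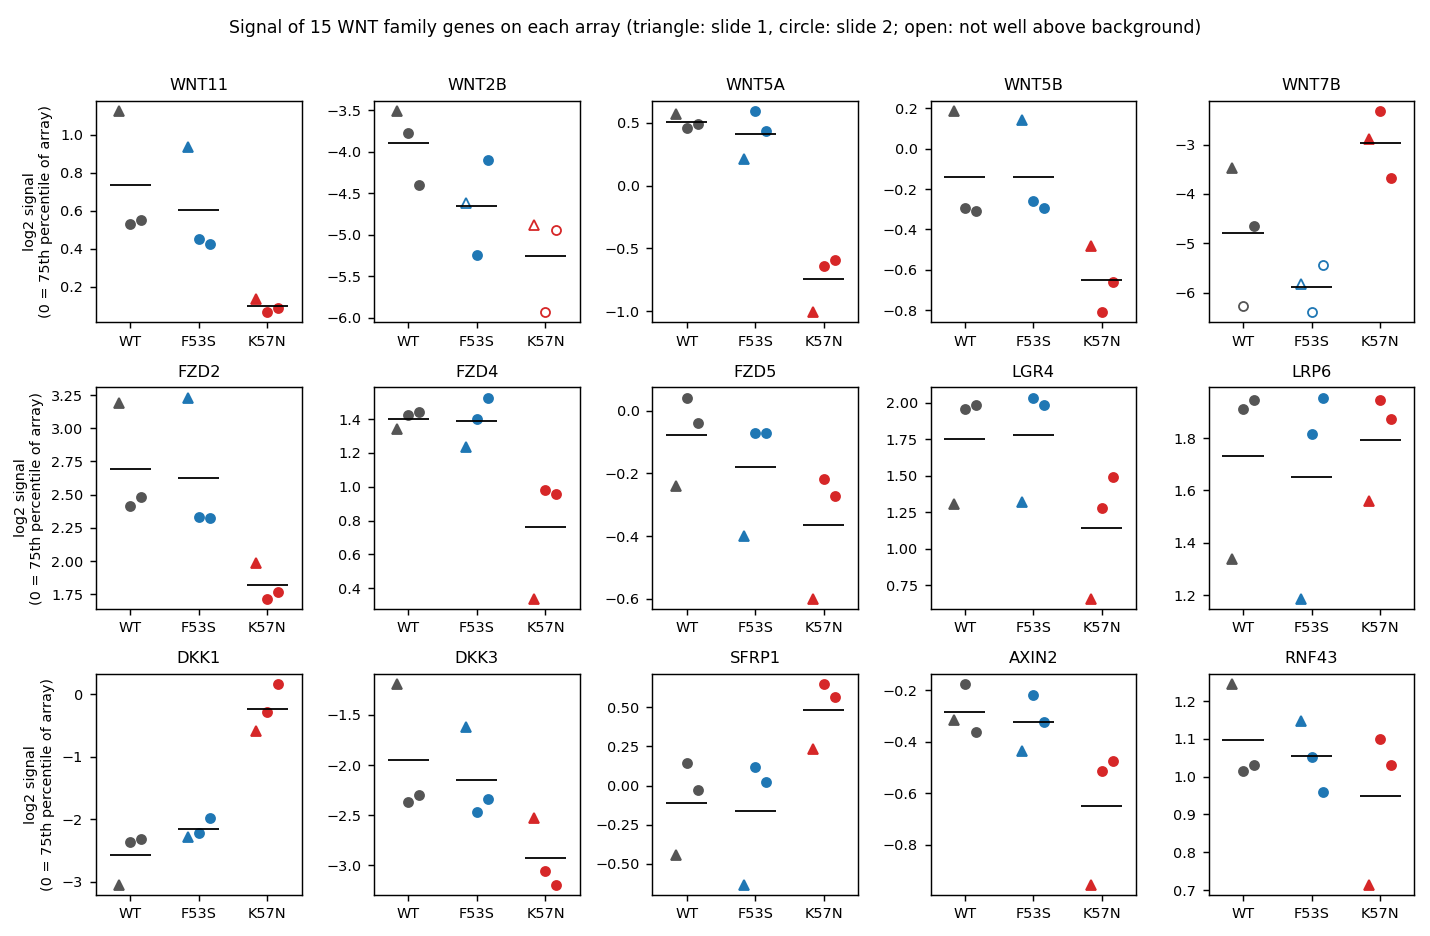
Log2 signal (y axis, 0 is the 75th percentile of the array) of 15 members on each of the 9 arrays, by cell line. Triangles are slide 1 and circles slide 2, open symbols are arrays on which the probe was not well above background, and lines are means of 3 arrays. DKK1 is highest and WNT5A lowest on all 3 K57N arrays, and for several genes the slide 1 array stands apart from the other 2 in every line.

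WNT7B, a ligand of the β-catenin route, had log2 signals of -3.47, -6.28 and -4.65 in WT, -5.83, -6.40 and -5.43 in F53S, and -2.89, -2.32 and -3.67 in K57N. It was well above background on all 3 K57N arrays, on 2 WT arrays and on no F53S array, and WT overlapped with both mutants. Against F53S, WNT7B was at least 3.52-fold higher in K57N, taking the lowest signal well above background as the limit for F53S, with an adjusted p of 0.0237 with the block and of 0.0997 without it. It was tested because of its K57N arrays alone, so that this p is not independent of the filter. With normexp background correction the log2 difference was 0.74 (adjusted p = 0.991), which is below that limit. WNT7B was not called against WT (adjusted p = 0.257, and 0.0776 with the block), and the K57N arrays exceeded the WT arrays of the same number by 0.57, 3.96 and 0.98, of which the second is against a WT array not well above background. Of the other probes for WNT7B, 1 was at background on all 9 arrays and 1 exceeded it on 1 WT and 1 K57N array, so the gene rested on 1 probe.

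WNT2B had log2 signals of -3.51, -3.77 and -4.40 in WT, -4.62, -5.25 and -4.09 in F53S, and -4.88, -5.94 and -4.94 in K57N. It was well above background on all 3 WT arrays, on 2 F53S arrays and on no K57N array. K57N was at least 1.85-fold lower than WT against the background limit. The adjusted p was 0.149 without the block and 0.0393 with it, for a probe that was tested because of its WT arrays alone. With normexp background correction the log2 difference was -0.48 (adjusted p = 0.939), a smaller change than that limit.

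WNT5B and WNT11, ligands mostly linked to β-catenin-independent signalling, were lower in K57N than in WT by less than 2-fold and passed the threshold of the adjusted p only with the slide as a block. WNT11 had log2 signals of 1.12, 0.53 and 0.55 in WT, 0.93, 0.45 and 0.42 in F53S, and 0.14, 0.06 and 0.09 in K57N, with a difference between K57N and WT of -0.64 (adjusted p = 0.0112 with the block and 0.222 without). WNT5B had log2 signals of 0.18, -0.29 and -0.31 in WT, 0.14, -0.26 and -0.30 in F53S, and -0.48, -0.81 and -0.66 in K57N, with a difference of -0.51 (adjusted p = 0.00875 with the block and 0.324 without). In both genes all K57N arrays lay below all WT and F53S arrays. With the block, 4 of the 10 tested ligands passed the adjusted p (WNT2B, WNT5A, WNT5B and WNT11), all lower in K57N, where 10.8% of all tested genes were lower by the same measure. Without WNT2B, which was tested through its WT arrays alone, 3 ligands passed. The ligands WNT3, WNT3A, WNT6, WNT10A and WNT10B did not pass it in either fit.

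Among the frizzled receptors, the seven-pass proteins that bind WNT ligands, no member was called in any comparison. With the block, 3 of the 10 passed the adjusted p between K57N and WT, all lower in K57N and each by less than 2-fold, beside the 10.8% of all genes that were lower. FZD2 had log2 signals of 3.19, 2.41 and 2.48 in WT, 3.23, 2.33 and 2.32 in F53S, and 1.99, 1.72 and 1.76 in K57N. The K57N arrays were the lowest on either slide, and the difference from WT was -0.87 (95% interval with the block -1.20 to -0.55, adjusted p = 0.00586, and 0.233 without the block). FZD4, which also binds norrin, had log2 signals of 1.34, 1.42 and 1.44 in WT, 1.24, 1.40 and 1.53 in F53S, and 0.34, 0.98 and 0.96 in K57N, a difference from WT of -0.64 (adjusted p = 0.0118 with the block and 0.182 without). FZD5 had log2 signals of -0.24, 0.04 and -0.04 in WT, -0.40, -0.07 and -0.07 in F53S, and -0.60, -0.22 and -0.27 in K57N. Over both slides its groups overlapped, and its difference from WT of -0.29 was the smallest among the members that passed (adjusted p = 0.0448 with the block and 0.629 without). For 9 of the 10 receptors the interval of the fit with the block lay within 2-fold of WT, the exception being FZD2.

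Of the receptors and co-receptors, LGR4 was lower in K57N than in WT with the block, and LRP6 did not pass in either fit. LGR4 had log2 signals of 1.31, 1.96 and 1.98 in WT, 1.32, 2.04 and 1.98 in F53S, and 0.66, 1.28 and 1.49 in K57N. On each slide the K57N arrays were the lowest, while over both slides the groups overlapped, and the difference from WT was -0.61 (adjusted p = 0.00382 with the block and 0.485 without). LRP6, the co-receptor that DKK1 binds, had log2 signals of 1.34, 1.91 and 1.95 in WT, 1.19, 1.82 and 1.96 in F53S, and 1.56, 1.94 and 1.87 in K57N. The difference between K57N and WT was 0.06 (95% interval with the block -0.18 to 0.30), and its sign changed when slide 2 was taken alone (-0.02).

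The secreted inhibitors moved in different directions. Besides DKK1, SFRP1, which binds WNT ligands, was higher in K57N with log2 signals of 0.23, 0.65 and 0.57, against -0.44, 0.14 and -0.03 in WT and -0.63, 0.12 and 0.02 in F53S. The K57N arrays lay above all others, and the difference from WT was 0.59 (adjusted p = 0.00829 with the block and 0.372 without). DKK3, which unlike DKK1 is not known to block LRP6, was lower in K57N with log2 signals of -2.53, -3.05 and -3.19, against -1.19, -2.37 and -2.30 in WT and -1.62, -2.47 and -2.34 in F53S. The difference from WT was -0.97 (adjusted p = 0.00266 with the block and 0.293 without). A dimmer probe for DKK3 gave -0.43 against WT, with overlapping groups and an adjusted p of 0.179 with the block. Against F53S, K57N differed by -0.76 at the dimmer probe (adjusted p = 0.0472 with the block and 0.517 without) and by -0.78 at the brighter. The K57N and F53S arrays did not overlap at either probe.

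The probes of DKKL1, a DKK-like protein, gave different values, and the gene, like FZD10 and LGR5, is given by array outside the rule that chose the other named genes, after its values were seen. The brighter probe lies at chr19:49878312-49878371 of hg19 and the dimmer is annotated from chr19:49869100 to chr19:49877990, a span of 8891 bases for a probe of 60, so that it joins at least 2 exons. The first 30 bases of each are shown because the probes read different parts of the gene.
DKKL1 brighter probe: gtagcccccatcagaccctgccccaagcac
DKKL1 dimmer probe: atccattcaaccagcggaggggagcttcga
At the brighter probe the log2 signals were 1.45, -0.14 and 0.12 in WT, 1.64, -0.09 and -0.09 in F53S, and 0.86, -0.42 and -0.32 in K57N, and the difference between K57N and WT was -0.43 (adjusted p = 0.0514 with the block and 0.930 without). At the dimmer probe they were -3.00, -4.47 and -3.68 in WT, -3.12, -4.02 and -3.72 in F53S, and -4.68, -5.50 and -5.32 in K57N, which had no array above the background mark, so that the probe was tested through the other lines alone. That probe was at least 2.17-fold lower in K57N than in WT against the background limit, with an adjusted p of 0.00351 with the block and of 0.130 without. The difference between the probes was not tested, and DKKL1 was not counted among the called members, which were counted by their brighter probe.

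The feedback regulators and nuclear factors, several of which report β-catenin activity, did not pass the adjusted p in any comparison of either limma fit (0 of 6). Between K57N and WT with the block, 8.56% of all tested genes passed it as higher and 10.8% as lower. Without adjustment 1 of the 6, AXIN2, had p below 0.05 between K57N and WT with the block. The share of all tested genes at that unadjusted mark was not counted, so it does not set AXIN2 apart. AXIN2 had log2 signals of -0.32, -0.18 and -0.36 in WT, -0.44, -0.22 and -0.32 in F53S, and -0.96, -0.51 and -0.48 in K57N. All K57N arrays lay below the others, and the difference from WT was -0.36 (95% interval with the block -0.63 to -0.10, adjusted p = 0.0619, and 0.456 without the block). A dimmer AXIN2 probe differed by -0.45, with overlapping groups. RNF43, a ubiquitin ligase that removes frizzled receptors from the cell surface, had log2 signals of 1.25, 1.02 and 1.03 in WT, 1.15, 1.05 and 0.96 in F53S, and 0.71, 1.1 and 1.03 in K57N, a difference of -0.15 (adjusted p = 0.465 with the block) that rested on slide 1 and was 0.04 on slide 2 alone. LEF1, TCF7, NKD1 and ZNRF3 differed by 0.02 to 0.13 at their brighter probes, while dimmer probes gave -0.36 for TCF7 and -0.29 for ZNRF3, neither of which passed the adjusted p (0.169 and 0.132 with the block). At the brighter probes, for all 6 genes the interval of K57N against WT with the block lay within 2-fold. The antisense RNA FZD10-AS1 differed by 0.24 and did not pass either.

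Counting every gene by the adjusted p alone, with the slide as a block, 2 members were higher and 9 lower in K57N than in WT, where 8.56% and 10.8% of all tested genes were higher and lower. The 2 higher were DKK1 and SFRP1, and the 9 lower were WNT2B, WNT5A, WNT5B, WNT11, FZD2, FZD4, FZD5, LGR4 and DKK3. The arrays of K57N lay entirely above those of WT for 2 members, where this held for 10.3% of all genes, and entirely below for 9 members, where it held for 12.6%. WNT2B, tested through its WT arrays alone, is in both of the counts of 9 and is no support for them, and without it each is 8.

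**Figure D3:**
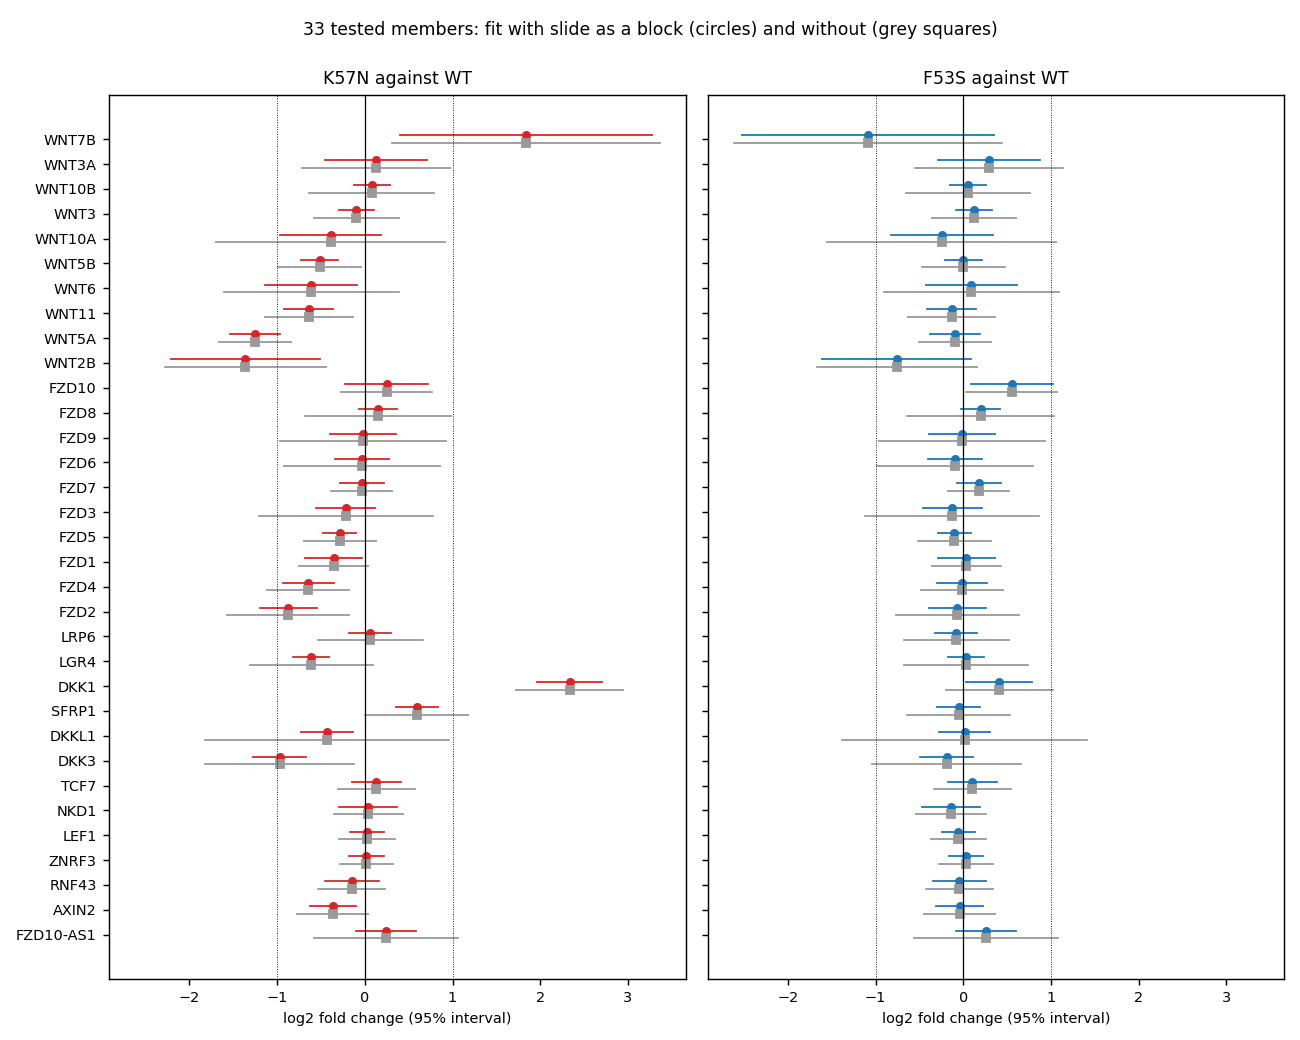
Log2 fold change of the 33 tested members against WT (x axis) in K57N (left) and F53S (right), with 95% intervals, from the fit with the slide as a block (circles) and without it (grey squares). Genes are ordered by role and dotted lines mark 2-fold. The estimates are the same in both fits while the intervals without the block are wider, the values of WNT2B and WNT7B rest partly on arrays at background, and DKK1 and WNT5A are the members whose K57N interval clears 0 by the widest margin.

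K57N was also compared with F53S, which shares the K57N arrays with the comparison above. Without the block, DKK1 was called higher (1 of 33, 0.965% of all genes) and WNT5A lower (1 of 33, 0.249%). With it, DKK1 and WNT7B were called higher (2 of 33, 1.89%) and WNT5A lower (1 of 33, 1.11%), where WNT7B, tested through K57N alone and at background on all F53S arrays, is not support for the count. By the adjusted p alone with the block, 3 members were higher, where 5.82% of all genes were, and 7 lower, where 7.52% were. The 3 higher were DKK1, SFRP1 and WNT7B (2 without WNT7B), and the 7 lower were WNT5A, WNT5B, WNT11, FZD2, FZD4, LGR4 and DKK3. The median of the 33 members was -0.16, and that of all genes was -0.07.

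F53S cells did not differ from WT cells in any member by the calls used. With limma, 0 of the 33 members were called in either direction in either fit, as were 0% of all tested genes, also by the adjusted p alone. Without adjustment, 1 member had p below 0.05 in the fit without the block (FZD10) and 2 in the fit with it (FZD10 and DKK1). The share of all tested genes at that unadjusted mark was not counted, so these counts are not read as a difference between the lines. The methods' t-test, taken without adjustment and with the same 2-fold limit, called 0 members, and its share over all tested genes was not counted. FZD10 had log2 signals of -0.72, -1.17 and -1.08 in WT, -0.15, -0.61 and -0.55 in F53S, and -1.06, -0.71 and -0.45 in K57N. Each F53S array exceeded the WT arrays, and the log2 difference was 0.55 (95% interval with the block 0.08 to 1.02). DKK1 differed by 0.41 (95% interval with the block 0.04 to 0.78), and FZD7 was the other member whose F53S arrays all lay above those of WT, with a difference of 0.18. F53S arrays lay entirely above WT for these 3 members, where 1.55% of all genes did, and entirely below for 0, where 1.64% did. For 30 of the 33 members the interval with the block lay within 2-fold.

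Genes of the pathway outside the family were read from a list of 67, of which 58 were tested. It held proteins for secretion of WNTs, R-spondins and other agonists, further receptors, further inhibitors, the cytoplasmic relay with the β-catenin destruction complex, nuclear factors, planar polarity genes and targets. Without the block, 0 were called higher and 2 lower in K57N than in WT. With it, 1 was called higher and 2 lower, and by the adjusted p alone 3 were higher and 16 lower, where of all tested genes 2.57% and 1.98% were called and 8.56% and 10.8% passed the adjusted p alone. The median log2 change of the 58 was -0.26, against -0.06 for all genes. Of the 10 tested further receptors and co-receptors 4 were lower by the adjusted p with the block, of the 8 planar polarity genes 3, of the 12 nuclear factors 2 and of the 17 genes of the cytoplasmic relay 3, with 1 of these 17 higher. Of the 6 further inhibitors 2 were higher and 3 lower, and of the 2 tested targets 1, BAMBI, was lower.

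ROR2, a receptor tyrosine kinase that serves as receptor for WNT5A, had log2 signals of -0.66, -1.37 and -1.14 in WT, -0.69, -1.31 and -1.15 in F53S, and -2.21, -2.68 and -2.33 in K57N. The K57N arrays were the lowest without overlap, and the difference from WT was -1.35 (adjusted p = 0.0310, and 0.000646 with the block). APCDD1, an inhibitor in the cell membrane, had log2 signals of -0.69, -0.80 and -1.06 in WT, -0.93, -1.09 and -1.16 in F53S, and -2.44, -2.09 and -2.06 in K57N, a difference from WT of -1.35 (adjusted p = 0.00676, and 0.00105 with the block). Both were lower in K57N than in F53S as well, by log2 values of -1.35 for ROR2 (adjusted p = 0.0462) and -1.14 for APCDD1 (adjusted p = 0.0248). Against F53S, the calls of both were lost without any 1 F53S or K57N array or without WT replicate 2, and that of ROR2 without WT replicate 3. Without any 1 of the WT, K57N or F53S arrays except F53S replicate 1, the call of ROR2 against WT was lost, while that of APCDD1 was kept. SOST, a secreted inhibitor that binds LRP5 and LRP6, had log2 signals of -2.05, -2.70 and -2.65 in WT, -0.92, -1.70 and -2.01 in F53S, and -1.02, -1.38 and -1.26 in K57N. Its K57N arrays lay above the WT arrays by 1.25 (adjusted p = 0.00167 with the block and 0.0832 without), and its F53S arrays also lay above the WT arrays, by 0.92, without being called.

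**Figure D4:**
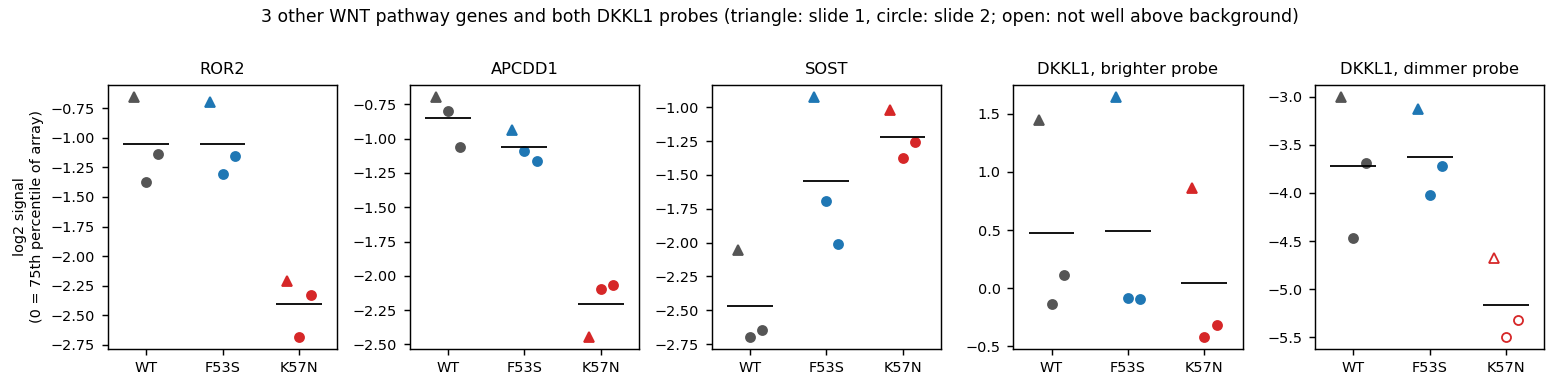
Log2 signal (y axis, 0 is the 75th percentile of the array) of ROR2, APCDD1 and SOST and of both DKKL1 probes on each array, by cell line, with means of 3 arrays as lines. ROR2 and APCDD1 are lowest on the 3 K57N arrays, and at the dimmer DKKL1 probe no K57N array is well above background (open symbols).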

How the data were processed

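RNA was hybridised with 1 dye to Agilent arrays of 60-base probes for human transcripts. Per the submitters' processing notes and the file headers, the authors read them with Agilent Feature Extraction 10.10.1.1 and deposited a processed signal per spot and array, an intensity from which the software had removed the background and spatial trends. The authors also deposited log2 values, which matched the log2 of these intensities after a shift by a constant of each array, to within 0.02 for 99.5% to 99.8% of probes. How the authors set that constant is not given in the sources used here.

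For the values reported, the log2 processed signal of each array was taken relative to its 75th percentile over non-control spots. The scanner software's uneven or outlying spots (278 to 501 per array) were left out, and repeated spots were averaged. A probe counted as well above background when more spots than not were marked so, and was tested if this held on all 3 arrays of at least 1 line. Probes were named by RefSeq accession where they carried one (29076 probes), and otherwise by the array's annotation. A gene was represented by its tested probe with the highest mean signal. Probe positions are those of the array's annotation on hg19.

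limma 3.58.1 in R 4.3.3 was fitted over 25405 tested probes with 1 mean per line, after reading with the package data.table (version 1.17.8), with Benjamini-Hochberg adjustment over all of these probes. A gene was called at adjusted p below 0.05 with a change of more than 2-fold. Where all arrays of the lower line were below the background mark, the fold is a lower bound, set on each array by the lowest signal marked well above background, or by the probe itself if brighter. Sequences came from the deposited files and from RefSeq, and sequences and figures were handled with Python 3.11.15, pandas 2.3.3 and matplotlib 3.10.9. The procedure was tested on simulated data. The number of arrays, 3 per line, limits the precision. The p-values of limma rest on the spread between experiments within lines, pooled over the lines fitted. They do not measure the spread between separate lines carrying the same mutant.

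Once line means were subtracted, same-numbered arrays of different lines correlated across genes with r from 0.34 to 0.87. Arrays of different numbers were not compared in this way, and same-numbered arrays shared a slide. These values therefore cannot show whether the replicate numbers paired the arrays. The members and lists were chosen with earlier results of these data known. Members were named with every value where they were called in either fit, where their adjusted p with the slide block was below 0.05, or where they had 1 of the 2 smallest unadjusted p of K57N against WT in their role, a part of the rule that did not cover the antisense RNA. The alternatives were the slide block, the replicate block, slide 2 alone, normexp (offset 50), quantile normalization, other filters on dim probes, marked spots kept, averaging all probes of a gene, fits of the compared lines alone, the authors' deposited log2 values, the methods' t-test and leaving out each array. For the list of other pathway genes, those besides the slide block were chosen after seeing the data. A marker of the cell type list is not reported here.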

Additional observations from a re-analysis of the deposited data

Results flagged for a closer look

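Of the members' probes that were not tested, 7 were well above background on 1 or 2 mutant arrays and on no WT array. WNT16 had log2 signals of -4.29 on F53S replicate 2 and -2.76 on K57N replicate 2. WNT4 was marked on F53S replicate 3 at -3.51 by 1 probe and on K57N replicate 2 at -3.83 by the other. WNT7A was marked on K57N replicate 2 at -4.78. SFRP5 was marked on K57N replicate 2 at -1.60, whereas its other arrays lay between -7.48 and -5.81. For the antisense RNA FZD10-AS1, 1 probe was marked on F53S replicate 2 at -4.59 and on K57N replicate 3 at -3.20, and a further probe on K57N replicate 3 at -4.35. Of these 9 values, 4 came from K57N replicate 2. None was repeated on another array of the same line by the same probe.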

How the results depend on the processing

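Between K57N and WT, DKK1 was called higher under every alternative run except the adjusted methods' t-test, which called 0 members in any comparison. The number called lower (main value 1, WNT5A) was 2 with the slide block, with the replicate block and with the unadjusted methods' t-test (WNT2B and WNT5A), 0 without a filter on dim probes, and 0 to 1 when single arrays were left out. Between K57N and F53S, the number called higher (main value 1, DKK1) was 2 with the slide block, the replicate block, the compared lines alone, quantile normalization and the unadjusted methods' t-test (DKK1 and WNT7B), 0 without a filter, and 0 to 2 when single arrays were left out, 2 without WT replicate 1 or 2. The number called lower (main value 1, WNT5A) was 0 without a filter, with normexp, with the compared lines alone, and 0 to 1 when single arrays were left out. For the other pathway genes against WT (main value 2), 4 were called on slide 2 alone, 1 with normexp and with the compared lines alone, 0 without a filter and by the adjusted t-test, and 1 to 3 when single arrays were left out. Against F53S (main value 2), 1 was called among probes well above background on all 9 arrays, 0 with normexp, with the compared lines alone, without a filter and by the adjusted t-test, and 0 to 2 when single arrays were left out. The cause was not tested.

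Log2 changes of named genes were recomputed in 984 combinations of gene, comparison and alternative, and 37 changed sign, all in values not called. On slide 2 alone they were 0.031 (FZD4), 0.015 (SFRP1) and 0.038 (WNT5A) for F53S against WT, -0.021 (LRP6) and 0.042 (RNF43) for K57N against WT, and 0.059 (RNF43) for K57N against F53S. DKK3 gave 0.069 for F53S against WT as the mean of its probes, and WNT5B gave -0.0060 with normexp and -0.00074 with quantile normalization. When single arrays were left out, F53S against WT ranged from -0.096 to 0.014 for AXIN2, -0.45 to 0.19 for DKK3, -0.37 to 0.18 for FZD2, -0.085 to 0.061 for FZD4, -0.18 to 0.0073 for FZD5, -0.19 to 0.26 for LGR4, -0.28 to 0.15 for LRP6, -0.091 to 0.030 for RNF43, -0.22 to 0.18 for SFRP1, -0.30 to 0.060 for WNT11, -0.18 to 0.0051 for WNT5A and -0.14 to 0.16 for WNT5B. K57N against F53S ranged from -0.093 to 0.29 for LRP6 and -0.18 to 0.011 for RNF43, and K57N against WT from -0.14 to 0.18 for LRP6. Under normexp the log2 change of WNT2B against WT was -0.48 and that of WNT7B against F53S was 0.74, both in probes near background, where the signal over background limits what can be said.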
